A study of Homo sapiens with 2 samples.

Results

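The genes described here are 10 human tubulin genes, TUBB, TUBB3, TUBB6, TUBA1A, TUBA1B, TUBA1C, TUBA4A, TUBG1, TUBD1 and TUBE1, out of 23303 named genes on the assembled chromosomes in the deposited transcript models. They were chosen by name. Their transcript models were the RefSeq models of these symbols plus every assembled model that shared an exact intron with one of them on the same strand, which gave 22 models in the control library and 21 in the other. Both libraries were made from HCT116, an established human colorectal carcinoma line, built with a T-REx tetracycline-inducible system for knockdown of USP49, a deubiquitinase that acts on histone H2B. One library was labelled control and 1 was labelled USP49 knockdown, and cells were harvested 36 h after doxycycline. The treatment text was the same for both libraries and did not state whether the control was induced or carried the USP49 construct. The labels place the cells in medium with serum, blasticidin and puromycin, and the library was poly(A) RNA with no strand-marking step described. There was 1 library per group, so differences between them have no replicate check and no test across libraries was made.

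Tubulins are the building blocks of microtubules. An alpha and a beta subunit pair into the dimer that polymerises, gamma-tubulin forms the ring complex from which microtubules grow, and delta- and epsilon-tubulin act at centrioles. TUBB3 is the beta isotype known from neurons and is also made by many carcinoma cells. Free tubulin dimers lower the stability of alpha- and beta-tubulin mRNA through the start of the nascent chain, a feedback called autoregulation, and the acidic carboxyl-terminal tails are the sites of polyglutamylation.

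The starts of the coding sequences are shown because they hold the codons read in autoregulation and because they group the genes. Each line gives the first 24 coding bases from GENCODE 29 on GRCh38, 5′ to 3′, with the first 12 bases in capitals. For the alpha genes the coordinates span an intron.
TUBB3, chr16:89923402-89923425, plus strand: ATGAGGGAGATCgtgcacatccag
TUBB, chr6:30720507-30720530, plus strand: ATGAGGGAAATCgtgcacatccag
TUBA1A, chr12:49186813-49188979, minus strand: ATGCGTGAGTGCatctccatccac
TUBA4A, chr2:219252210-219253858, minus strand: ATGCGTGAATGCatctcagtccac
TUBG1, chr17:42609738-42609761, plus strand: ATGCCGAGGGAAatcatcacccta
TUBD1, chr17:59890979-59891002, minus strand: ATGTCAATTGTAacagtgcaactt
TUBE1, chr6:112087411-112087434, minus strand: ATGACCCAGTCGgtggtcgtacag
TUBB6 had the same 24 bases as TUBB3, and TUBA1B and TUBA1C had the same 24 bases as TUBA1A. Among 19699 genes with a complete coding transcript, the 12-base start of TUBA1A was found in 3 genes, all of them alpha-tubulin genes described here. The start of TUBB3 was also found in 3 genes, TUBB3, TUBB6 and TUBB8, and the start of TUBB in TUBB, TUBB4B and TUBB8P12. The 12-base starts of TUBA4A, TUBG1, TUBD1 and TUBE1 were each found in 1 gene.

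The ends of the beta- and gamma-tubulin coding sequences are shown because they encode the tails, in which TUBB3 and TUBB6 differ. Each line gives the last 60 coding bases before the stop codon, with the glutamate codons GAA and GAG in capitals.
TUBB3, chr16:89935742-89935801, plus strand: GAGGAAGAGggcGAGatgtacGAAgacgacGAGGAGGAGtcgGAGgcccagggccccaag
TUBB6, chr18:12326068-12326127, plus strand: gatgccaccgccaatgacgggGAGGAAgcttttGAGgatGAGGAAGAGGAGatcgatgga
TUBG1, chr17:42614979-42615038, plus strand: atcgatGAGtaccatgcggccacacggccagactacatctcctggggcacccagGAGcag
Glutamate codons made up 9 of the last 20 codons in TUBB and TUBB3, 7 in TUBB6, 2 in TUBG1 and TUBD1, and 0 in TUBE1.

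The similarity of the genes bears on how reads are assigned. The coding sequences of TUBA1A and TUBA1B were 97.2% identical, those of TUBA1B and TUBA1C 96.8%, those of TUBB3 and TUBB6 87.6% and those of TUBB and TUBB3 81.8%. Of all 48-base windows in the transcript, 63.7% in TUBA1B, 35.2% in TUBA1A, 30.9% in TUBG1, 20.6% in TUBA1C and 19.2% in TUBB also occurred in a gene at another locus. The share was 9.70% in TUBB3, 4.13% in TUBD1 and 1.19% in TUBB6, and no such window was found in TUBA4A or TUBE1. Levels of TUBA1A, TUBA1B, TUBA1C and TUBG1 are therefore less certain than their counting intervals show.

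The control library held 16392816 fragments and the library labelled knockdown 19976310, as read from the deposited models. The gene targeted in the design did not check the label: USP49 had 46.5 fragments in the control and 69 in the other library. Their ratio was 1.22 (95% counting interval 0.820 to 1.78), while the sum over its models was 2.88 FPKM against 1.10 FPKM. All 6 epithelial markers were measured, with summed levels of 633 and 578 FPKM, and of 5 intestinal markers CDX2 was measured, at 8.26 and 7.46 FPKM, while CDX1 and VIL1 were at 0 in both libraries. Of 16 neuronal markers, 14 were below 1 FPKM in both libraries, the highest was MAP2 at 1.97 and 1.89 FPKM, and ELAVL4, STMN2, NEFL and NEFM were at 0. Of 6 fibroblast markers COL1A1 was measured, at 6.83 and 6.50 FPKM, and COL1A2 and DCN were at 0 in both libraries. None of the leukocyte or endothelial markers reached 1 FPKM.

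Levels are given as FPKM, fragments per 1000 bases of RefSeq exon per 1000000 library fragments, with every model that covers those exons counted. A gene counted as measured at a mean of at least 1 FPKM and 300 exonic bases, and 9 of the 10 tubulin genes were. Ratios are the library labelled knockdown over the control, log2 values carry 1 FPKM added to both levels, and all intervals are 95% and cover counting error only, since fragments without molecular identifiers are not independent molecules. These were bulk RNA measurements, in which fewer cells of a type and less RNA per cell cannot be told apart.

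By this measure the 5 most abundant of these genes in both libraries were TUBB6, TUBA1B, TUBA1C, TUBB3 and TUBA4A, in that order, followed by TUBG1, TUBE1, TUBD1 and TUBA1A. The intervals of TUBB6 and TUBA1B overlapped in both libraries. Those of TUBA1C and TUBB3 overlapped in the control, and those of TUBA1B and TUBA1C in the library labelled knockdown. All other neighbours in the order had intervals that lay apart within each library. By the sum over models, in which the FPKM of a gene's models are added, TUBB3 at 53.3 FPKM lay above TUBA1C at 47.1 FPKM in the library labelled knockdown. By that sum TUBA1A at 12.6 FPKM also lay above TUBD1 at 11.1 FPKM in the control. With models of the gene's strand alone, TUBB3 and TUBA1C both stood at 45.7 FPKM in the library labelled knockdown. The 10 genes together held 0.0604% of the control fragments and 0.0582% of those of the library labelled knockdown.

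**Figure D1:**
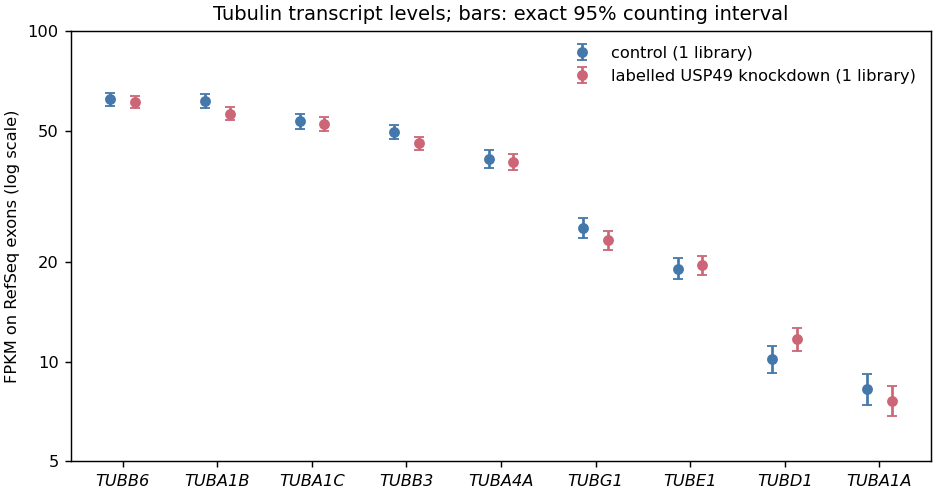
Level of each measured tubulin gene in FPKM (vertical, log scale) in the control library (blue) and the library labelled USP49 knockdown (red); bars are exact 95% counting intervals, n = 1 library per group. Levels run from 62.1 FPKM for TUBB6 to 8.26 FPKM for TUBA1A in the control, and the order by this measure is the same in both libraries.

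A log2 ratio of 0.32 in size was taken as the threshold for a difference. With 1 FPKM added to both levels, this is a rise by 25% or a fall by 20%, so genes at low levels need a larger change. None of the 9 measured genes passed this threshold, beside 3.62% of all 12059 measured genes. None reached 2-fold, beside 0.78% of all genes. TUBD1 and TUBE1 lay above 0 and 7 genes below 0. Their log2 ratios ran from -0.13 to 0.18 with a median of -0.03, and the median of all measured genes was -0.0042, with the central 95% between -0.31 and 0.24. The counting interval of the ratio lay apart from 1 for TUBB3, TUBA1B and TUBD1, 3 of 9 genes, beside 27.1% of all measured genes.

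**Figure D2:**
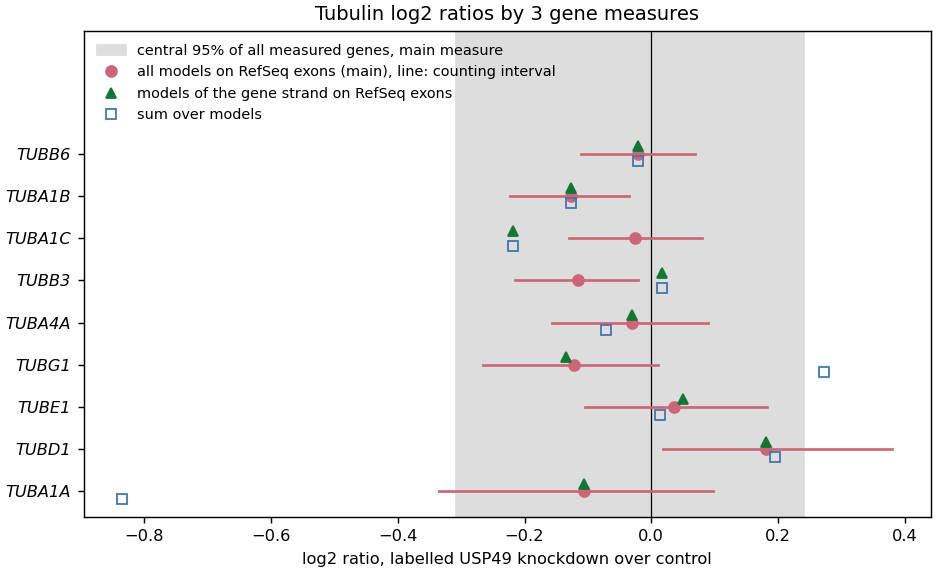
Log2 ratio of the library labelled USP49 knockdown over the control (horizontal) for each measured tubulin gene, by 3 gene measures: all models on RefSeq exons (circles, with the counting interval of the ratio), models of the gene's strand (triangles) and the sum over models (squares). The grey band holds the central 95% of all measured genes by the measure of the circles, -0.31 to 0.24. The sum over models sets TUBA1A at -0.83 and TUBG1 at 0.27, outside this band. The band does not give the spread of the sum over models. By that sum 16.6% of all genes passed the log2 threshold, against 3.62% by the measure of the circles.

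Among the beta-tubulin genes, TUBB3 stood at 49.7 FPKM (47.3 to 52.1) in the control and 45.7 FPKM (43.7 to 47.9) in the library labelled knockdown, from 1633 and 1833 fragments. The ratio was 0.921 (0.861 to 0.985), log2 -0.12. This direction rested on 1 model. An unspliced model without a strand, chr16:88528115-88530007 in hg18, was listed only in the control with 202 fragments and covered 1369 bases of TUBB3 exon. With models of the gene's own strand alone, TUBB3 stood at 45.2 and 45.7 FPKM, a ratio of 1.01 (0.944 to 1.08). The number of fragments in that model also depended on how it was read: the rule used here was set after the value of TUBB3 had been seen, and under the earlier rule the ratio was 0.954 (0.892 to 1.02), with an interval that held 1.

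TUBB3 lies at chr16:88515918-88530006 on the plus strand of hg18 and has a pair of annotated starts. All fragments of its spliced models, 1487 in the control and 1833 in the library labelled knockdown, were assigned to the model that starts at 88517188. The model with the upstream start, which shares every later exon, was listed at 0 in both libraries. Fragments on the shared exons cannot tell the starts apart, so this split rests on the authors' division of fragments among models. The 250 bases before each start, as placed by RefSeq on a later build, are shown, since the deposited values differ between these models. They are from RefSeq on GRCh38.p14, plus strand, 5′ to 3′, with GC boxes (GGGCGG or CCGCCC) and CCAAT boxes (CCAAT or ATTGG) in capitals; these letter patterns do not overlap one another in the sequences shown.
TUBB3 upstream start, chr16:89921675-89921924: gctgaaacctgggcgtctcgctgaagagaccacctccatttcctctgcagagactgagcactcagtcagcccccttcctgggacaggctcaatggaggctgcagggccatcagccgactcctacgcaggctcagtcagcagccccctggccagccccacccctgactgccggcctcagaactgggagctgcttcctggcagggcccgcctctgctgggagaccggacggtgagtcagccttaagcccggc
TUBB3 downstream start, chr16:89923092-89923341: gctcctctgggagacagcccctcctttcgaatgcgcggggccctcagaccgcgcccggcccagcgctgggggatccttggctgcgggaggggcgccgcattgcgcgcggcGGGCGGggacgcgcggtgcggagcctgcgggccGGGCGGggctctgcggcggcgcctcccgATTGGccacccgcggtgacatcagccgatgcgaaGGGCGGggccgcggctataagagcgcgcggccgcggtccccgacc
The downstream window held 3 GC boxes and 1 CCAAT box, and the upstream window held 0 of either. The starts on GRCh38.p14 lie farther apart than those of the hg18 models, so the windows need not end where the hg18 models start. Part of the downstream window may lie within the first exon of the hg18 model, and so may a GC box in it. Of 35116 promoter windows, 42.6% held a GC box and 32.0% a CCAAT box on either strand. A match is a run of letters and was not tested as a binding site.

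TUBB6, a broadly expressed beta isotype at chr18:12298257-12316568 on the plus strand, had 62.1 FPKM (59.3 to 65.0) and 61.2 FPKM (58.7 to 63.8). Its ratio was 0.985 (0.926 to 1.05). The libraries overlapped, and all 1849 and 2220 fragments sat on its single RefSeq model of 4 exons.

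TUBB, a widely expressed beta isotype, was at 0 fragments in both libraries at chr6:30796136-30801174, which with a floor of 3 fragments allows up to 0.0737 and 0.0605 FPKM. The gene lies in the major histocompatibility region, for which the hg18 models also include alternate haplotype contigs. On those contigs TUBB had 87 fragments in the control, 67 on the cox contig and 20 on the qbl contig, and 82 in the library labelled knockdown, 65 and 17. That gave 2.14 and 1.65 FPKM, a ratio of 0.773 (0.565 to 1.06). Of 199 genes found on both chromosome 6 and the cox contig, 143 (71.9%) were at 0 on chromosome 6 in both libraries, as were 224 of 1002 other genes of that chromosome. Of the shared genes at 0 on chromosome 6, 15 were above the floor on the contigs. The contig fragments thus need not be all those of TUBB, and 2.14 and 1.65 FPKM are not read as its level. The chromosome 6 value of TUBB is likewise not read as a lack of expression.

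Between TUBB3 and TUBB6, the measured beta-tubulin genes described here, TUBB3 made up 44.4% (42.8 to 46.0) in the control and 42.8% (41.3 to 44.3) in the library labelled knockdown. Against all beta-tubulin genes in the files its share was 14.4% (13.7 to 15.0) and 13.9% (13.3 to 14.5). The intervals overlapped by either denominator. The direction was not kept by other measures: the share among these genes was 45.2% and 45.9% by the sum over models, and 42.1% and 42.8% with models of the gene's strand alone. TUBB4B, which shares its first 12 coding bases with TUBB, held 60.1% and 60.3% of all beta-tubulin FPKM. TUBB entered these shares at 0, without its contig fragments, so every share given here leaves TUBB out.

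**Figure D3:**
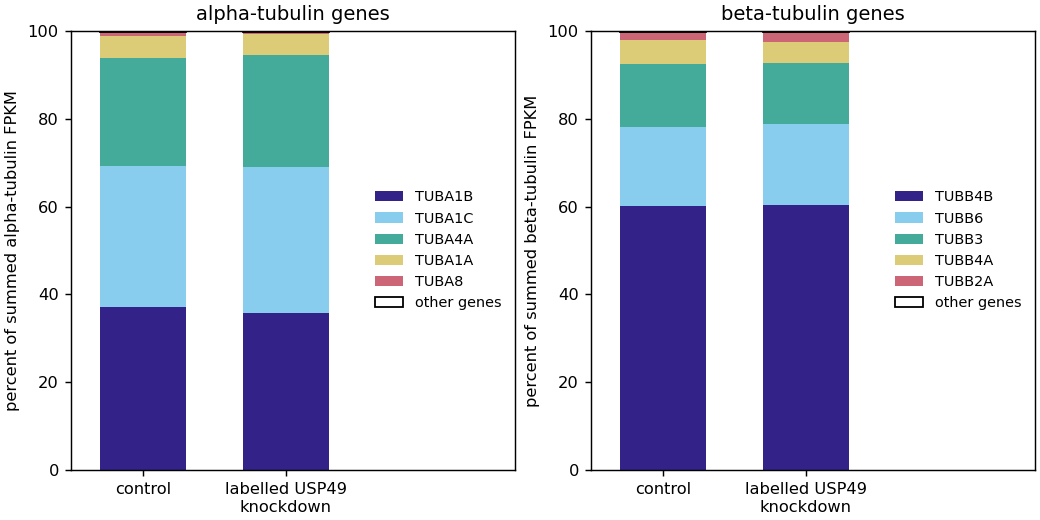
Percent of summed FPKM taken by each gene among alpha-tubulin genes (left) and beta-tubulin genes (right) in the control and the library labelled USP49 knockdown, 1 library each. TUBA1B takes 37.1% and 35.7% of alpha-tubulin, and TUBB3 takes 14.4% and 13.9% of beta-tubulin.

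Among the alpha-tubulin genes, TUBA1B at chr12:47807833-47811571 on the minus strand, a ubiquitous isotype, had 61.6 FPKM (58.7 to 64.5) in the control and 56.3 FPKM (53.8 to 58.8) in the library labelled knockdown. The ratio was 0.914 (0.857 to 0.976), log2 -0.13. It was the lowest ratio among the 9 genes by this measure, and 16.6% of all measured genes had a lower log2 ratio. All 1768 and 1970 fragments sat on 1 RefSeq model, so the value did not depend on the split between models within the gene.

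TUBA1C, at chr12:47945132-47953380 on the plus strand, had 53.3 FPKM (50.5 to 56.3) and 52.4 FPKM (49.9 to 55.0), a ratio of 0.982 (0.914 to 1.06). An assembled minus-strand model, chr12:47952759-47957642, was listed only in the library labelled knockdown. It had 213 fragments and 357 bases on the last exon of TUBA1C. With models of the gene's strand alone TUBA1C stood at 45.7 FPKM in that library, a ratio of 0.857 (0.795 to 0.924). The position of TUBA1C relative to the control thus rested on whether those fragments were counted.

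TUBA4A, at chr2:219823245-219826882 on the minus strand, had 41.0 FPKM (38.5 to 43.7) and 40.1 FPKM (37.9 to 42.5), a ratio of 0.978 (0.898 to 1.06). The libraries overlapped. A model with an intron found in no RefSeq model of the gene, chr2:219825197-219826174, was listed only in the control, with 276 fragments or 28.0% of those on its models. Models were assembled separately in each library, so a model listed in 1 library has no measured value in the other. STK16 on the opposite strand shares 59 exonic bases with TUBA4A, and the most that any model there gave was 0.826% of the fragments counted for TUBA4A in the control.

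TUBA1A, the alpha isotype prominent in developing neurons, lies at chr12:47864845-47869374 on the minus strand and was the least abundant measured gene, at 8.26 FPKM (7.39 to 9.19) and 7.60 FPKM (6.85 to 8.41). The ratio was 0.921 (0.793 to 1.07). The sum over models gave 12.6 and 6.61 FPKM, log2 -0.83, and passed the threshold, as did 16.6% of all genes by that measure. Before scaling to library totals, the fragments on its RefSeq and intron-sharing models were 325 and 324. Scaled, and over the same exon length, these gave a log2 ratio of -0.25, an alternative chosen after seeing the data. Unspliced models share no intron and were not among them.

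The models of TUBA1A differed between the libraries. In the control a 2-exon and a 3-exon assembled model held 155 and 63.4 fragments, and the RefSeq model of 4 exons held 107. In the other library 183 fragments were on the RefSeq model, a 3-exon model of 4198 bases held 141, and an unspliced model of 1813 bases across the 319-base intron chr12:47866041-47866359 held 148. FPKM divides by model length, which was 1468 bases for the 2-exon control model. On the exons themselves the libraries overlapped. Of the alpha-tubulin FPKM of the 4 genes, TUBA1A made up 5.03% (4.51 to 5.58) and 4.86% (4.39 to 5.36), TUBA1B 37.5% and 36.0%, TUBA1C 32.5% and 33.5%, and TUBA4A 25.0% and 25.7%.

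TUBG1, which encodes the main gamma-tubulin, lies at chr17:38014884-38020782 on the plus strand. It had 25.4 FPKM (23.7 to 27.2) in the control and 23.3 FPKM (21.8 to 24.8) in the library labelled knockdown. The ratio was 0.916 (0.832 to 1.01), with an interval that held 1. By the sum over models the log2 ratio was 0.27, opposite in sign. That sum included a 3-exon model of 450 fragments, chr17:38016124-38069034, which was listed only in the library labelled knockdown and joined TUBG1 to its close relative TUBG2 through a 48564-base intron, chr17:38017640-38066203. Only 32 bases of this model lay within TUBG1, and 2831 bases, 98.9%, lay within TUBG2.

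TUBG2, the second gamma-tubulin gene, lies at chr17:38064792-38072550. Of the 5 measured genes of the other tubulin list, it alone was past the threshold, beside 3.62% of all measured genes. TUBG2 had 8.20 FPKM in the control and 1.05 FPKM in the library labelled knockdown, log2 -2.17, and its RefSeq model was at 0 in the latter. The 1.05 FPKM came from 38.0 fragments. All were an even share of the 450-fragment model joined to TUBG1, which covers 242 of the 1818 exonic bases of TUBG2. The exon value in that library thus rested on how 1 model was drawn. Over the whole span of TUBG2, introns included, models of the plus strand held 514 and 445 fragments, a ratio of 0.710 (0.624 to 0.808). Models of the minus strand or without a strand were not counted there. Each library had its own assembled model that kept the TUBG2 intron chr17:38066252-38068516. That model held 354 fragments in the control, beside 160 on the RefSeq model, and 450 in the library labelled knockdown, beside 0. The part of these models in the lower exon value was not tested. Since 30.9% of the 48-base windows of TUBG1 occur in another gene, and 29.8% in TUBG2, the values of this pair are uncertain.

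**Figure D4:**
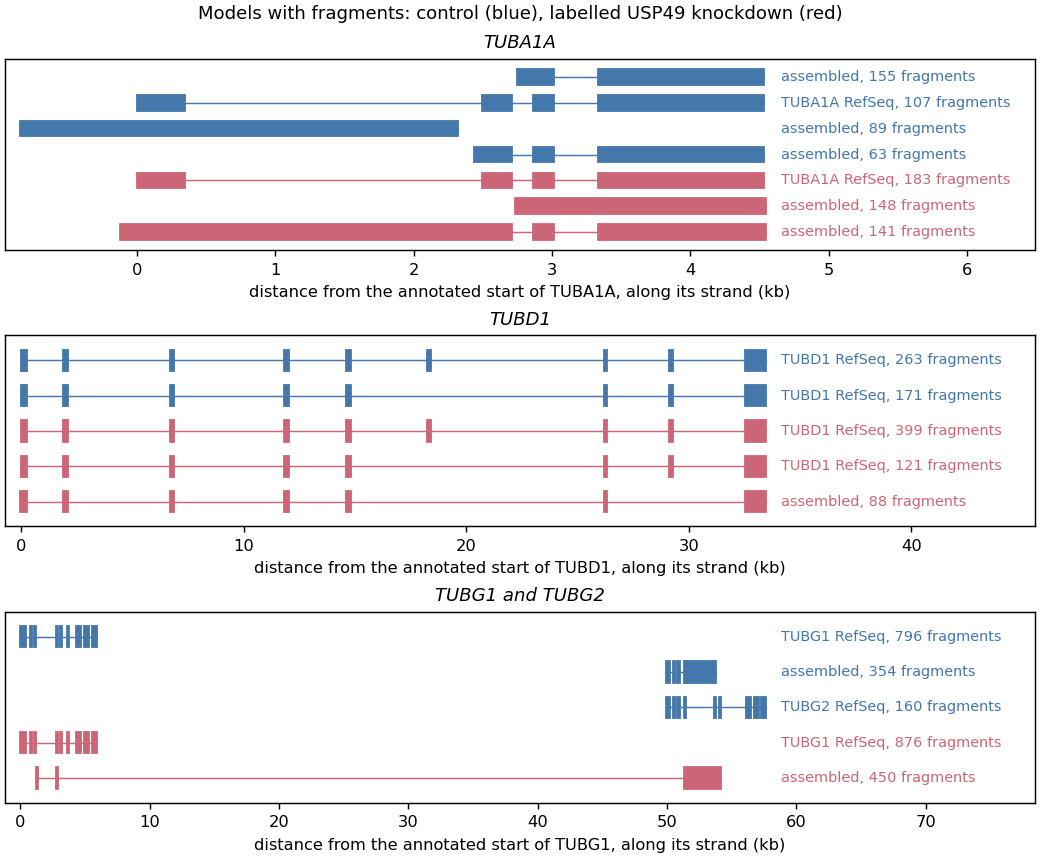
Models with fragments for TUBA1A, TUBD1 and the TUBG1 and TUBG2 pair, drawn to scale as distance in kb from the annotated start of the first gene named, with boxes for exons and the fragments of each model at the right; control in blue, library labelled USP49 knockdown in red. The 450-fragment model in the bottom panel begins in TUBG1 and has most of its bases in TUBG2.

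TUBD1, the delta-tubulin gene, at chr17:55291622-55325088 on the minus strand, had 10.2 FPKM (9.24 to 11.2) in the control and 11.7 FPKM (10.8 to 12.6) in the library labelled knockdown, from 434 and 607 fragments. The ratio was 1.15 (1.01 to 1.30), log2 0.18. It was the highest ratio among the 9 genes, and 5.11% of all measured genes had a higher log2 ratio. Its divergent neighbour RPS6KB1, whose start lies 100 bases away on the opposite strand, had 17.1 and 17.0 FPKM.

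The TUBD1 models differed by exon 6 of 9, 165 bases at chr17:55306682-55306846. Models with this exon held 60.7% (55.8 to 65.2) of the TUBD1 fragments in the control and 65.7% (61.7 to 69.4) in the library labelled knockdown. The intervals overlapped. The 8-exon RefSeq model without it held 39.3% in the control and 19.9% in the other library, where a 7-exon assembled model with the unannotated intron chr17:55292568-55298751 held a further 14.5%. These shares are the authors' division of fragments among models, and the intervals do not cover the error of that division.

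TUBE1, the epsilon-tubulin gene, at chr6:112498553-112515444 on the minus strand, had 19.1 FPKM (17.7 to 20.5) and 19.6 FPKM (18.3 to 20.9), a ratio of 1.03 (0.930 to 1.13). The libraries overlapped. An 11-exon assembled model that kept the 209-base intron chr6:112504009-112504217 was listed only in the control, with 224 fragments or 30.2% of those on its models. No intron outside RefSeq was shared by both libraries in any of the 10 genes.

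The partners of these genes were read from lists of other microtubule genes. None of the 12 measured gamma-tubulin ring genes passed the threshold, beside 3.62% of all measured genes. Their median log2 ratio was 0.04. NEDD1, which recruits the ring complex, had the largest value at 19.6 and 22.7 FPKM, log2 0.20. None of the 9 measured centriole partners of delta- and epsilon-tubulin passed, beside the same 3.62%. Their median was 0.11, with 6 above 0 and 3 below, and PLK4, the kinase that starts centriole duplication, had the largest value at 20.2 and 24.3 FPKM, log2 0.25.

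The machinery that folds tubulin also held no gene past the threshold, beside 3.62% of all measured genes. The 12 measured folding cofactors had a median of 0.02, and TBCA, a cofactor that binds beta-tubulin, had the largest value at 28.1 and 23.6 FPKM, log2 -0.24. The 8 subunits of the chaperonin CCT had a median of 0.03, with CCT2 at 329 and 356 FPKM, log2 0.11. PFDN6 was listed at 0 on chromosome 6 in both libraries, but like TUBB it also lies on the alternate haplotype contigs, so its level is not read from that value.

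The 8 genes of tubulin autoregulation, among them TTC5, which recognises the start of the nascent tubulin chain, had a median of 0.05. None passed the threshold, beside 3.62% of all measured genes. TTC5 stood at 12.4 and 12.8 FPKM, and CNOT3, a subunit of the CCR4-NOT deadenylase, had the largest value at 45.4 and 41.1 FPKM, log2 -0.14. The 14 measured tubulin-modifying enzymes had a median of 0.0028, with TTLL7, a polyglutamylase, at 4.87 and 5.37 FPKM, log2 0.12. The 20 measured microtubule-associated and severing proteins had a median of -0.0094, with MAP1S at 26.1 and 21.3 FPKM, log2 -0.28. TUBG2 was the only gene past the threshold in these lists. Since few of all measured genes passed it, lists this short with none past it are not read as stable.

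**Figure D5:**
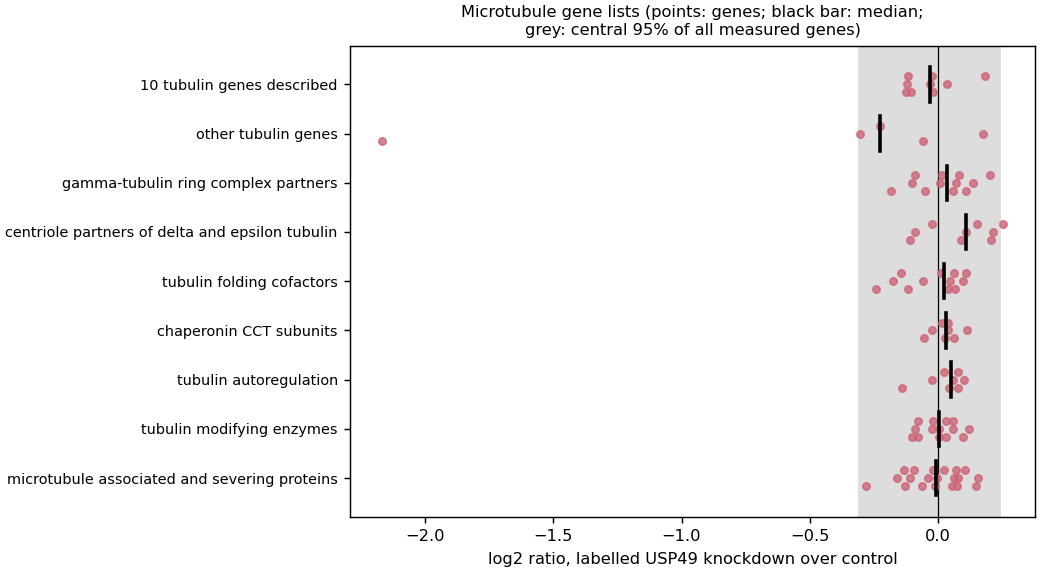
Log2 ratio of the library labelled USP49 knockdown over the control (horizontal) for each measured gene of the tubulin and microtubule lists; the black bar is the list median and the grey band the central 95% of all measured genes. TUBG2 lies at -2.17, a value that rests on 1 joined model in the library labelled knockdown. No other gene in the lists passes the log2 threshold of 0.32, beside 3.62% of all measured genes.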

How the data were processed

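RNA-seq of HCT116 cells was analysed from 1 control library and 1 library labelled USP49 knockdown. Cufflinks, TopHat, Bowtie, Picard, SAMtools and bedtools, with the build hg18, are named in the submitters' processing notes without versions. Each deposited file holds one library's transcript models in hg18, with an FPKM, its interval bounds and a score for every model; per the file headers and attributes these are RefSeq models and models assembled in that library, and the deposited FPKM values carry no term for library depth. The authors' score column was not used.

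The deposited interval gave a whole number of fragments, within 0.02, in 94.9% and 94.6% of loci with 1 model. Fragments of all models but unspliced ones without a strand were computed from FPKM and length less 47 bases. That offset held in 89.6% of RefSeq loci with 1 model in each library. For unspliced models without a strand, the interval was used where it gave a whole number. Otherwise the larger of its number and that from length less a correction fitted per library was taken. This rule was set after the value of TUBB3 had been seen. Fragments were spread evenly over each model's exons, summed on the union of a gene's RefSeq exons and scaled to the library's total on the assembled chromosomes, alternate contigs left out (16392816 and 19976310). Log2 ratios used a pseudocount of 1 FPKM, a minimum mean of 1 FPKM and 300 exonic bases; thresholds were a log2 ratio of 0.32 in size and 2-fold. Levels have exact Poisson intervals, shares Clopper-Pearson intervals, and ratios intervals conditional on the summed fragments, all at 95% and for counting error only. For shares of FPKM the family total was rescaled to a fragment number at the gene's length, so those intervals are approximate. Accessions were named through the RefSeq gene table (39319 of 41157) or the symbol in the files (712), and 1126 stayed unnamed. Genes named are the 10 tubulin genes, USP49, and from each list the genes past the first threshold, at most the 4 largest, or else the single largest; assembled models are given where they hold at least 10% of a gene's fragments. TTC5, PFDN6, RPS6KB1, STK16, TUBB4B and single markers were named outside that rule with their values seen. The tubulin genes and lists were chosen with earlier results of these data known. The coding ends of the alpha-tubulin genes are not reported here. The calculation was tested on simulated data in which a second library was redrawn on the control library's own models. That setting cannot test error from models that differ between the libraries. Python 3.11.15, numpy 2.4.6, scipy 1.17.1 and Biopython 1.88 were used. Alternatives covered the gene measure, strand, scaling, pseudocount, minimum level and haplotype contigs.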

Additional observations from a re-analysis of the deposited data

Results flagged for a closer look

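TUBB had fragments outside the chromosomes used for the comparisons: 87 in the control and 82 in the library labelled knockdown on the alternate haplotype contigs, while its chromosome 6 model was at 0 in both. It was singled out because these fragments lie in data that the comparisons do not use and exceed the 3 fragments that a count of 0 allows. The counting interval of the ratio of these contig fragments, 0.565 to 1.06, held 1.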

How the results depend on the processing

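Without scaling to the library totals, the median log2 ratio of the tubulin genes was 0.25, against 0.25 for all genes. TUBD1 was then the 1 tubulin gene past the log2 threshold of 0.32, beside 3490 of all 12051 measured genes. By the sum over models TUBA1A was the 1 tubulin gene past the log2 threshold of 0.32, beside 1942 of all 11674 measured genes. A further alternative, chosen after seeing the data, took the fragments of the RefSeq and intron-sharing models over the same exon length. By it TUBG1 was the 1 tubulin gene past the threshold, beside 1390 of all 11568 measured genes. With the haplotype contigs counted for TUBB, also chosen after seeing the data, the median over 10 genes was -0.07. Under the other alternatives the median of the 9 genes was between -0.03 and -0.02.

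The number of all genes past the log2 threshold of 0.32 was 437 of 12059 measured genes. It became 1942 of 11674 by the sum over models, 1390 of 11568 by the fragments of those models and 3490 of 12051 without scaling. In TPM it was 961 of 13293, and at a minimum of 5 FPKM 188 of 9285. Of the same 12059 genes, 701 passed at a pseudocount of 0.1 and 750 at a pseudocount of 0. The TUBB3 share of beta-tubulin was 44.4% in the control and 42.8% in the other library, and higher in the latter by the sum over models (45.2% and 45.9%) and both by the gene's strand and by the fragments of its models (42.1% and 42.8%). With all beta-tubulin genes in the denominator, TUBB at 0, it was 14.4% in the control and 13.9% in the library labelled knockdown. The TUBA1A share by the sum over models was 7.22% in the control and 4.33% in the library labelled knockdown.

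Taking fragments of unstranded models always from the deposited interval, also chosen after seeing the data, left 2 tubulin genes, TUBA1B and TUBD1, with a ratio interval apart from 1 in place of 3; by the gene's strand there were 3, TUBA1B, TUBA1C and TUBD1. The cause of these differences was not tested beyond the models named in the report. No paired analysis was possible because each group has 1 library and the labels carry no replicate numbers, and for the same reason no replicate was left out. Depth limits the ratio intervals of these genes to a median half-width of 0.12 on the log2 scale.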
